A study of Mus musculus with 2 samples.

Results

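The clustered protocadherin genes are the 58 GENCODE M21 genes whose symbols start with Pcdha, Pcdhb or Pcdhg, chosen by symbol alone. They stand in 3 clusters on mouse chromosome 18, among 21938 protein-coding genes examined in all; 1 of the 58, Pcdhgb8, is annotated as a polymorphic pseudogene. Their chromatin was read by DNase-seq, in which DNase I cuts DNA that nucleosomes and bound proteins leave exposed and the cut ends are sequenced. The tissue was left cerebral cortex of male mice of the strain B6CASTF1/J, a first-generation hybrid of C57BL/6J and CAST/EiJ, aged 2 months. There was 1 group of 2 biological replicates from animals that the labels number separately, with no other genotype, treatment, age or tissue. The comparisons are therefore between genes and regions within the tissue and between the 2 libraries, and no p-value was computed.

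Clustered protocadherins are cell-surface adhesion proteins that give neurons an individual surface identity and serve in the recognition of self by the branches of a neuron. In the alpha and gamma clusters each variable first exon has a promoter of its own and is spliced to a few constant exons at the end of the cluster, whereas each beta gene is a single coding exon. Most variable exons, called alternate, are switched on in small, seemingly random combinations that differ from neuron to neuron, while the C-type exons at the end of the alpha and gamma clusters are used more evenly across cells. The insulator protein CTCF, the cohesin complex and distant enhancers take part in that choice, with enhancers described within and downstream of the alpha constant exons and downstream of the gamma cluster.

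The alpha cluster held 14 members, 12 alternate genes from Pcdha1 to Pcdha12 and the C-type genes Pcdhac1 and Pcdhac2, and it began at position 36930184 (mm10). The gene record ENSMUSG00000007440.10 has the symbol Pcdha11 in GENCODE M21, as does ENSMUSG00000102206.5, and is called Pcdha10 here after RefSeq. The beta cluster held 22 genes between 37264938 and 37524479. The gamma cluster held 22 members, 12 of the A family, 7 of the B family and the 3 C-type genes Pcdhgc3, Pcdhgc4 and Pcdhgc5, and it ended at 37841873. All 58 lie on the plus strand.

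Each replicate came with a pair of peak lists, a footprint list and a false discovery rate (FDR) track. A peak is an interval of raised cutting with a height in the authors' signal units, and a footprint is a short protected stretch inside open chromatin. The FDR track lists stretches of bases under 0.05. Promoters were taken as windows reaching 500 bp up- and downstream from each transcription start site (TSS) of a gene, and a promoter was called accessible where both replicates had a peak there in the shorter, stricter lists. Read counts were not among the values analysed, and the depth of the libraries is unknown. The shorter lists held 63928 peaks in replicate 1 and 76440 in replicate 2, and the longer lists 108421 and 127162. Of the marker genes for cortex tissue, 3 of 6 excitatory neuron and 1 of 4 interneuron promoters were accessible, with 2 of 3 for astrocytes, 2 of 3 for oligodendrocytes, 1 of 3 for microglia, 0 of 3 for endothelium and 0 of 6 for genes patterned outside the forebrain, where 56.2% of all protein-coding genes were. Leaving out replicate 2 raised both neuronal counts: replicate 1 had a peak at 6 of 6 excitatory neuron and 3 of 4 interneuron promoters. It also had one at 1 of 6 from outside the forebrain, and 61.6% of protein-coding genes had one. The counts for astrocytes, oligodendrocytes, microglia and endothelium were the same in replicate 1. The longer lists gave 5 of 6 excitatory neuron, 3 of 4 interneuron and 3 of 3 astrocyte promoters in both replicates, against 61.0% of protein-coding genes. The remaining counts did not change with the longer lists.

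Few clustered protocadherin promoters were open in the cortex. A peak in both replicates was found at 5 of 58 members, where 56.2% of all protein-coding genes had one. Of the 5, 4 were C-type genes, namely Pcdhac1, Pcdhac2, Pcdhgc3 and Pcdhgc5, and the other was Pcdhga12, the last gene of the A family in genomic order. Among the 53 members that are not C-type, 1 was accessible. Replicate 1 by itself had a peak at 6 members, against 61.6% of protein-coding genes, and replicate 2 at 5, against 57.1%. The member with a peak in replicate 1 alone was Pcdhgb8, and 52 members had no peak in either. In bulk tissue, a promoter open in few cells and a promoter weakly open in many cells cannot be told apart.

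**Figure D1:**
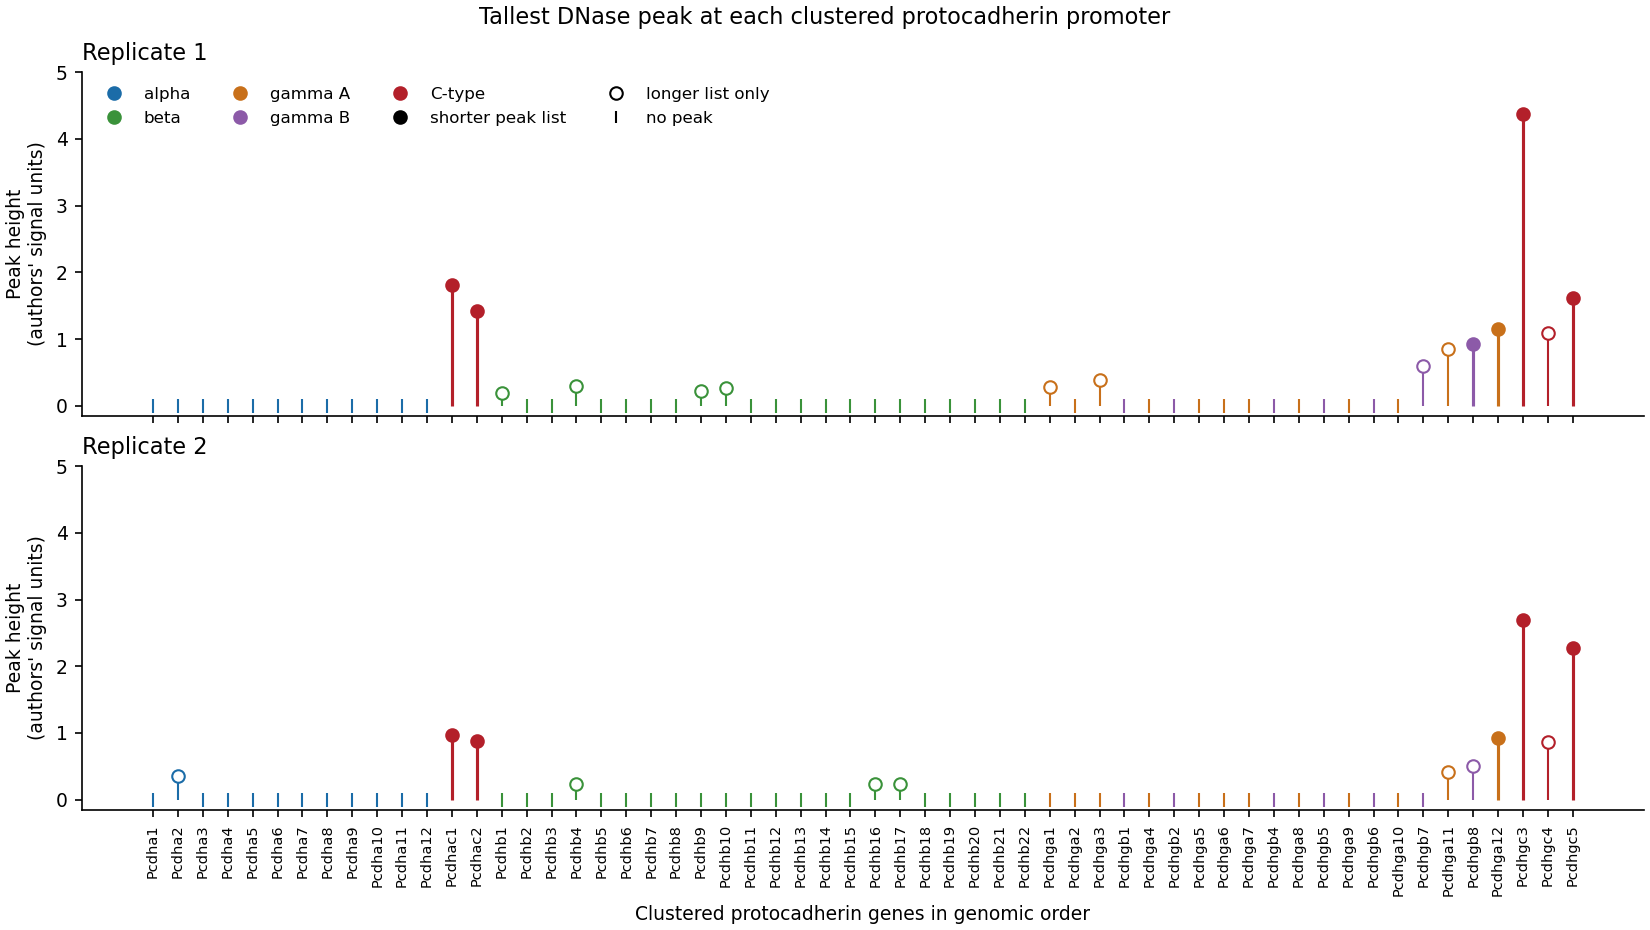
Height of the tallest peak at each of the 58 promoters (vertical axis, authors' signal units) in genomic order, replicate 1 above and replicate 2 below; filled circles are peaks of the shorter lists, open circles peaks found only in the longer lists, and ticks at 0 members without a peak. The tallest circles in both panels belong to Pcdhgc3, at 4.37 and 2.69, and the 12 alternate alpha genes show 1 open circle, at Pcdha2 in replicate 2.

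Protein-coding genes in the same range of a CpG ratio were set beside each set of members. The alternate and beta sets had fewer accessible promoters than these genes, and the C-type set did not. The ratio of observed to expected CpG dinucleotides at the promoter, which is raised in many housekeeping and developmental genes, had a median of 0.701 over the 12 alternate alpha genes, 0.378 over the beta genes, 0.582 over gamma A, 0.642 over gamma B and 0.681 over the C-type genes. Of the protein-coding genes within the alpha range of this ratio, 83.9% were accessible, against 0 of the 12 alternate alpha genes. Within the beta range 51.7% were accessible, against 0 of 22 beta genes. Within the gamma A and gamma B ranges the shares were 80.7% and 83.4%, against 1 of 12 and 0 of 7. Within the C-type range, 73.3% were accessible, against 4 of 5. The GC content was not matched. It was 51.7% to 58.0% over the C-type genes and 37.4% to 50.3% over the 53 members that are not C-type. Genes with several annotated start sites have more windows in which a peak can fall: 37 members had 1 TSS, of which 2 were accessible, and among all protein-coding genes with 1 TSS 25.9% were.

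The C-type genes of the alpha cluster had peaks at their promoters in both replicates. Pcdhac1, the first C-type exon of the alpha cluster, had a peak 1.81 high in replicate 1 and 0.966 high in replicate 2, centred -23 bp from its 5′ end in both. Pcdhac2, the exon that follows it, had peaks of 1.42 and 0.878, centred 187 and 236 bp into the gene. Of all accessible protein-coding promoters, 18.9% had a lower mean height than Pcdhac1 and 13.9% a lower one than Pcdhac2. Replicate 1 was the higher at both, as it was over all accessible protein-coding promoters, whose median log2 ratio of replicate 2 over replicate 1 was -0.77 (SD 0.43, n = 12324 genes). That ratio was -0.91 at Pcdhac1 and -0.69 at Pcdhac2.

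The 3 gamma C-type genes covered a wider range of heights. Pcdhgc3 had the tallest promoter peak of the clusters, 4.37 in replicate 1 and 2.69 in replicate 2, and the height of 60.5% of the accessible protein-coding promoters lay below it. Its peak, centred -44 and -34 bp from the 5′ end, also overlapped an exon of the gene BC037039. No TSS of another gene lay in the promoter window of Pcdhgc3, and the part of either gene in the signal was not tested. Pcdhgc5 had peaks of 1.61 and 2.28 and was the only accessible member higher in replicate 2, with a log2 ratio of 0.50. Pcdhgc4 had no peak in the shorter lists and peaks of 1.09 and 0.871 in the longer lists, where its lowest FDR was 0.00121 in replicate 1 and 0.0161 in replicate 2. All 5 C-type genes thus had a peak in both replicates of the longer lists. Over all members that was so at 9 of 58, against 61.0% of protein-coding genes.

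The alternate genes of the gamma cluster had peaks mainly at the end nearest the C-type exons. Pcdhga12 had peaks of 1.15 and 0.925, whose centres lay 337 and 330 bp downstream of its 5′ end, inside its variable exon. Pcdhga12 has 2 annotated start sites, and the region covered by these peaks lay 28 bp from the nearer one. The neighbour of Pcdhga12, Pcdhgb8, had a peak of 0.924 in replicate 1 and, in the longer list, one of 0.500 in replicate 2. Pcdhga11, which precedes Pcdhgb8, had peaks of 0.851 and 0.419 in the longer lists. These 3 neighbours are the last alternate genes before Pcdhgc3. A TSS of the noncoding transcript Gm26672 lies within the promoter window of Pcdhga11, and signal there cannot be assigned to either gene. Elsewhere in the gamma A and B families the longer list of replicate 1 had peaks at Pcdhga1 (0.289), Pcdhga3 (0.380) and Pcdhgb7 (0.600), replicate 2 had none at these genes, and the remaining 13 gamma members had no peak in any list.

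The beta genes were without a peak in the shorter lists at all 22 promoters. In the longer lists Pcdhb4 had a peak in both replicates, of 0.294 and 0.230, and 0.396% of the promoters open in both longer lists had a lower mean height. Pcdhb1, the first gene of the cluster, had a peak of 0.190 in replicate 1 alone, as did Pcdhb9 with 0.216 and Pcdhb10 with 0.263. Pcdhb16 and Pcdhb17, which are neighbours, had peaks of 0.236 and 0.230 in replicate 2 alone. The beta peaks of each replicate were thus found at different genes except at Pcdhb4, and 16 beta genes had none. Each of these 7 heights lay below 0.358, the height of the single peak at an alternate alpha promoter, that of Pcdha2 in replicate 2. At the promoters of the other 11 alternate alpha genes there was no peak in any of the 4 lists. Beyond the promoter windows, the longer list of replicate 2 had 1 peak in the variable exon of Pcdha12.

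Over the 5 accessible members the median of the mean height (geometric mean of both replicates) was 1.32, against 2.80 over the 12324 accessible protein-coding genes. The median log2 ratio of replicate 2 over replicate 1 was -0.69 (SD 0.56, n = 5 genes).

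Footprints, like peaks, were found most often at the C-type genes. A footprint in both replicates was found at 8 of 58 members, against 58.5% of protein-coding genes: the 5 C-type genes, Pcdhga11, Pcdhgb8 and Pcdhga12. Counted by itself, replicate 1 had a footprint at 15 members and replicate 2 at 9. Within the accessible members, Pcdhac2 had 9 footprints in replicate 1 and 5 in replicate 2, of which 4 of the former overlapped one of the latter. Pcdhac1 had 5 and 3, Pcdhgc3 had 5 and 4, Pcdhgc5 had 3 and 3, and Pcdhga12 had 2 and 2. Over all accessible protein-coding promoters the medians were 8 and 6. The counts cover the windows around every TSS of a gene. Pcdhac1 and Pcdhac2 had 1 TSS each, as did 1264 of the 12324 accessible protein-coding genes. Footprints that recurred at Pcdhgc3 began -149 and 13 bp from the 5′ end, and those at Pcdhac1 began at -78 and -3 bp. Which proteins left them was not tested.

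A stretch under an FDR of 0.05 in both replicates was found at 10 of 58 promoters, against 61.9% of protein-coding genes. Neither replicate had such a stretch at 38 members, against 32.2% of protein-coding genes. By set, 5 of 5 C-type genes, 3 of 12 gamma A, 1 of 7 gamma B, 1 of 22 beta and 0 of 12 alternate alpha genes had a stretch in both. The lowest FDR was 1.28e-22 in replicate 1 and 2.1e-14 in replicate 2 at Pcdhac1, and 2e-19 and 1.28e-09 at Pcdhgc3. At Pcdhb4 it was 0.0187 and 0.000589. Among members without a peak in that replicate's lists, Pcdhb6 had 37 bases under the limit and Pcdhb12 had 13, both in replicate 1 alone, and Pcdhga3 had 44 in replicate 2; these were picked out after their values were seen.

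**Figure D2:**
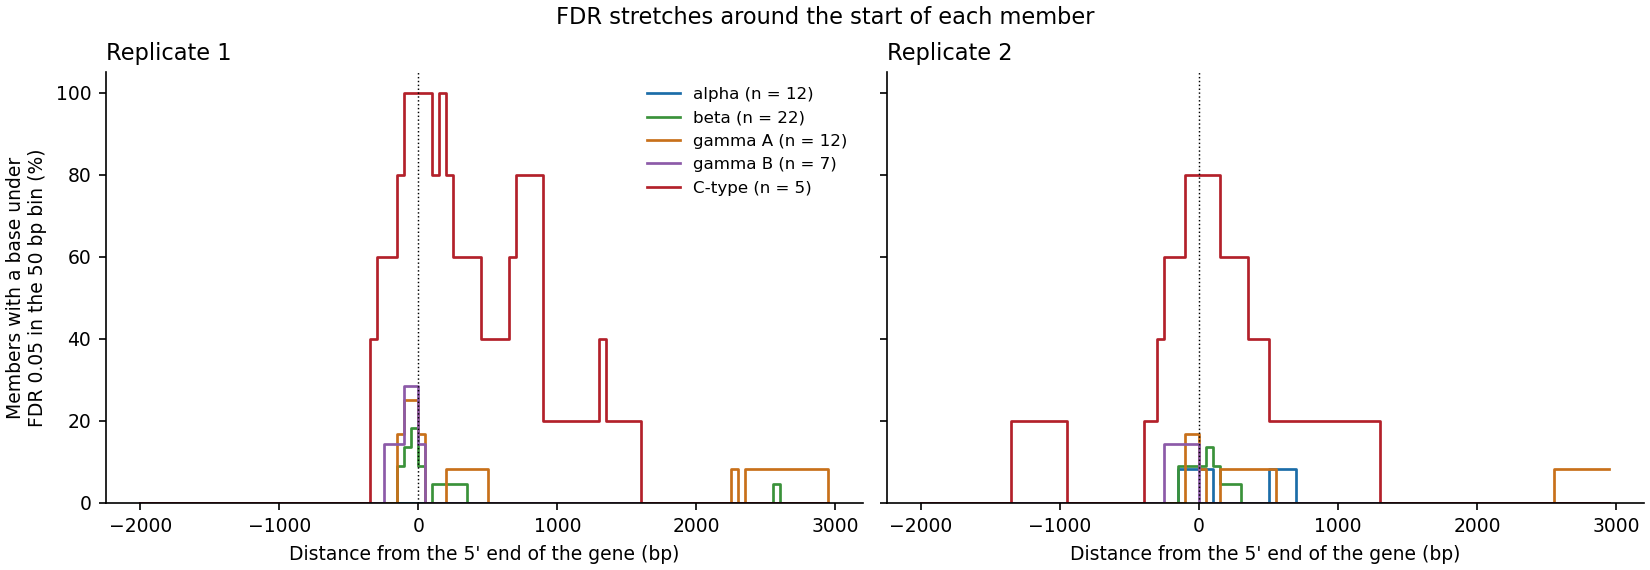
Share of the members of each set (vertical axis, percent) with a base under an FDR of 0.05 in each 50 bp bin, by distance from the 5′ end of the gene record (horizontal axis, bp), replicate 1 on the left and replicate 2 on the right. In the bin that starts at the 5′ end the C-type line stands at 100% in replicate 1 and 80% in replicate 2, and the alternate alpha line at 0% and 8.33%.

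Members of a family share sequence, and reads that fit several places can be lost or misplaced in alignment. The share of 25 bp words within the promoter windows that occur once in chromosomes 1 to 19, X and Y had a median of 75.4% over the alternate alpha genes, with a range of 69.0% to 86.1%. It was 76.3% over gamma B, 95.3% over gamma A, 99.1% over beta and 100% at every C-type gene. All 5 accessible members and all 9 with peaks in both longer lists were among the 31 members with at least 95% of such words unique. Among the 27 members below that limit, 0 were accessible and 24 had no peak in any list. Of the 26 members above it that are not C-type, 1 was accessible and 16 had no peak in any list. Words and motifs were sought in the reference sequence alone, and the sequence of the CAST/EiJ alleles of these hybrid mice was not examined. The part that alignment plays in the alpha and gamma B counts was not tested.

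The 12-letter CTCF core motif, searched on both strands, occurred in the promoter window of 1 of 58 members, Pcdha1, against 2.37% of protein-coding genes. A looser form of this core, which leaves 5 of its 12 letters free, was searched on both strands and includes every match of the former. It occurred at 24 of 58, against 40.0% of all protein-coding genes and 19.7% of those with a single TSS. It was found at 11 of 12 alternate alpha genes, 8 of 12 gamma A, 2 of 22 beta, 0 of 7 gamma B and 3 of 5 C-type genes. In 9 of the 12 alternate alpha genes a looser match on the gene's strand was centred 191 to 256 bp downstream of the 5′ end, and in 6 of 12 gamma A genes one was centred 353 to 363 bp downstream. These distances were described after the matches were seen.

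Within the variable exons the 12-letter core was found in 6 of 12 alternate alpha exons and 13 of 22 beta exons, and in 0 of 12 gamma A, 0 of 7 gamma B and 0 of 5 C-type exons. The alpha matches lay 543 to 587 bp from the 5′ end and on the plus strand in all 6 exons. The beta matches lay 2277 to 2816 bp from it, and on the minus strand in all 13. Only 1 of these matches, in Pcdha12, lay in a footprint or an FDR stretch, and only in replicate 2. No sequence of chromosome 18 is shown here, and a match says nothing of whether a protein was bound.

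Open regions were set unevenly along the 1512 kb from 300 kb before Pcdha1 to 300 kb after the gamma cluster. There, 46 regions had overlapping peaks in both replicates, 5 of them at member promoters and 41 elsewhere, with a further 7 in replicate 1 alone and 10 in replicate 2 alone. That is 3.04 shared regions per 100 kb, against 1.64 over chromosomes 1 to 19, X and Y. Of the 46, 9 lay in the upstream flank and 24 in the downstream flank, which hold other genes. The density was not set beside that of other stretches rich in genes. The 160 kb of alternate alpha exons held 0 and the 260 kb of the beta cluster held 0. The 98.1 kb of alpha C-type and constant exons held 5, or 5.09 per 100 kb, and the 36.0 kb of gamma C-type and constant exons held 2, or 5.55 per 100 kb. The 145 kb of gamma A and B exons held 2, or 1.38 per 100 kb. Of 10470 windows of 260 kb tiling the chromosomes, 25.2% held no shared region, as did 13.0% of the 386 windows with at least 10 protein-coding gene starts. These windows have the length of the beta cluster. No such share was computed for the 160 kb of the alternate alpha exons.

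**Figure D3:**
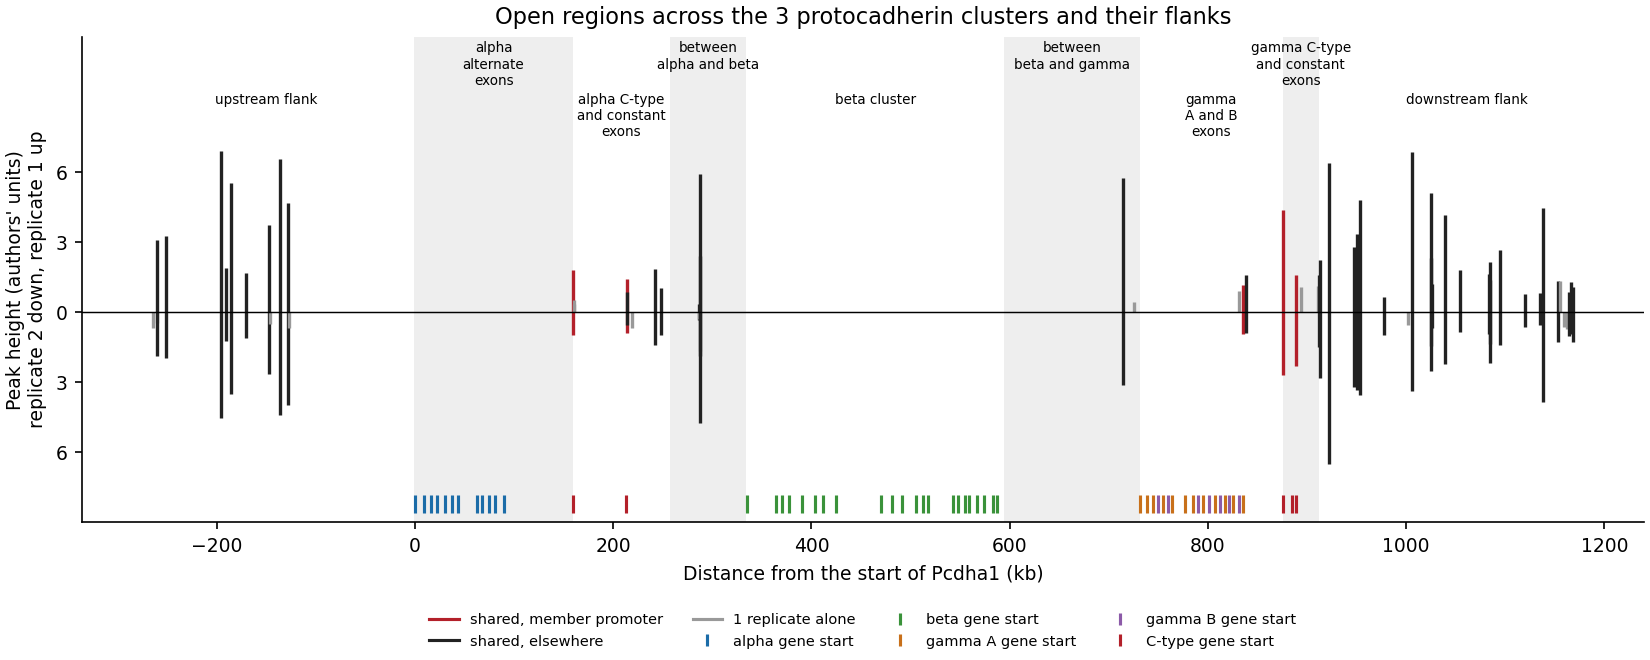
Peak heights (vertical axis, authors' units, replicate 1 upward and replicate 2 downward) by distance from the start of Pcdha1 (horizontal axis, kb); red bars are shared regions at member promoters, black bars other shared regions, grey bars peaks of 1 replicate alone, and coloured ticks the gene starts. The stretches over the alternate alpha and beta genes have no bar, and tall black bars stand beside the clusters, among them a region between alpha and beta with heights of 5.94 and 4.72.

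The tallest region between the clusters lay downstream of alpha. At chr18:37218201-37218460, intergenic and 30.5 kb beyond the alpha constant exons, the peak was 5.94 high in replicate 1 and 4.72 in replicate 2. It was taller than 99.7% of the 23895 shared regions over 2000 bp from any TSS and held 6 footprints in each replicate, and all 6 of replicate 1 overlapped one of replicate 2. It was also taller than every member promoter in both replicates. Just before it, at chr18:37217361-37217600, a region with heights of 2.40 and 1.87 held a CTCF core match that lay in a footprint in both replicates. Between them, a peak of 1.65 was found in replicate 2 alone, and a small region at chr18:37216678-37216860 had heights of 0.358 and 0.344. No shared region lay in the rest of the 76.8 kb between alpha and beta.

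Inside the alpha cluster 3 shared regions were not at member promoters. At chr18:37172301-37172500, between constant exons 2 and 3, the heights were 1.84 and 1.40, and the antisense transcript Gm38097 starts 64 bp away. At chr18:37178324-37178860, also before constant exon 3, they were 1.02 and 0.993 over the start of the noncoding transcript Gm10544. At chr18:37144339-37144762, in the Pcdhac2 variable exon, they were 0.863 and 0.547. The first of these was as tall as the Pcdhac1 promoter in replicate 1 (1.84 and 1.81) and taller in replicate 2 (1.40 and 0.966). In the gamma cluster the corresponding region was chr18:37768181-37768440, with heights of 1.58 and 0.905, at a TSS of Gm26672 within the Pcdhga12 variable exon.

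Downstream of gamma the regions were dense, 24 in 300 kb or 8.0 per 100 kb, and some were tall. Among the 24 were the promoters of Diaph1, Hdac3, Rell2, Fchsd1 and Arap3. The lowest mean height among the 24 regions was 0.670, at an intergenic one, below the median of 1.04 over all shared regions. The nearest, at chr18:37842067-37842236, lay 0.194 kb beyond the last gamma exon with heights of 1.58 and 1.49, and the next, at chr18:37842661-37842920, lay 0.788 kb beyond it with 2.26 and 2.83. At chr18:37852141-37852400, in an intron of Diaph1, which encodes a formin of the actin cytoskeleton, the heights were 6.41 and 6.48, and 97.8% of all shared regions were lower. That region lies 1007 bp from a Diaph1 TSS and 10.3 kb from the gamma cluster. Further in Diaph1 introns stood regions of 2.79 and 3.19 (35.3 kb from gamma), 3.37 and 3.34 (38.3 kb) and 4.80 and 3.54 (41.7 kb). The last of these, at chr18:37883561-37883780, held a CTCF core match. At chr18:38068001-38068220, 226 kb from gamma, an intergenic region had heights of 4.48 and 3.86. The regions at 10.3 kb, 41.7 kb and 226 kb were taller than every member promoter in both replicates. Whether any of these regions is an enhancer described for the clusters, and which gene it acts on, was not tested.

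**Figure D4:**
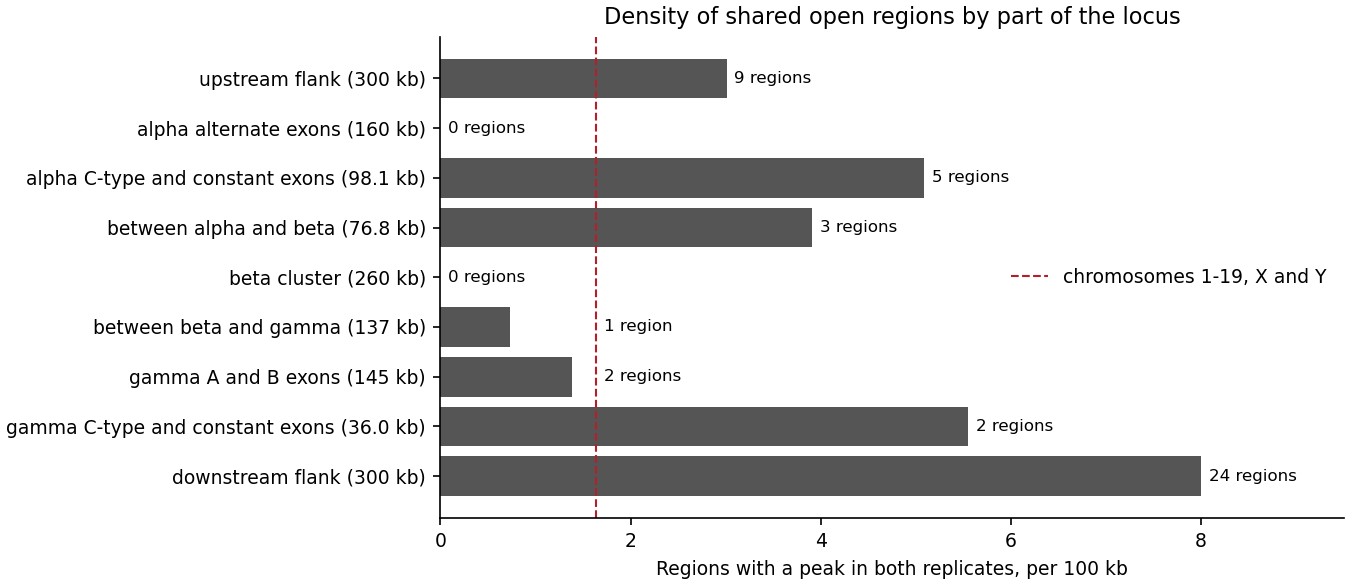
Shared open regions per 100 kb (horizontal axis) in each stretch of the locus (vertical axis, with its length in kb); bars give the density, numbers the count, and the dashed line the density over chromosomes 1 to 19, X and Y, 1.64. The stretches of alternate alpha exons and of beta genes stand at 0 and the downstream flank at 8.0.

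Of the 24 CTCF core matches in the locus, 3 lay in footprints of both replicates. 1 of the 3 was the region downstream of alpha described above, and the other 2 lay downstream of gamma. Of the 6 matches in the stretch of alternate alpha exons and the 13 in the beta stretch, 0 lay in footprints of both replicates. Footprints of any kind numbered 0 and 2 in the alternate alpha stretch and 6 and 0 in the beta stretch for replicates 1 and 2, against 34 and 36 in the alpha C-type and constant stretch.

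Genes outside the clusters but within 300 kb were open far more often than the members. Promoters of 16 of 22 neighbouring protein-coding genes were accessible: 10 of 15 upstream, 1 of 2 between beta and gamma and 5 of 5 downstream. Over the protein-coding genes of chromosome 18 other than members the share was 67.5%. Upstream, Tmco6 had heights of 6.89 and 4.54, Zmat2 6.58 and 4.38, and Ndufa2 and Ik, which share a region, 5.53 and 3.50. Also upstream, Hars and Hars2, a pair of histidyl-tRNA synthetase genes that share a region, had 3.73 and 2.63, Apbb3 and Slc35a4 shared one of 3.25 and 1.95, Sra1 had 3.11 and 1.87, and Wdr55 1.70 and 1.11. Between beta and gamma, Taf7, which encodes a subunit of the general transcription factor TFIID, had 5.76 and 3.11, while Slc25a2 beside it had no peak in the shorter lists. Downstream, Diaph1 had 6.85 and 3.38, Hdac3 and Rell2 shared 5.13 and 2.50, Fchsd1 had 4.16 and 2.21, and Arap3 1.82 and 0.844. The single shared region between beta and gamma was the Taf7 promoter, which stands 17.4 kb before Pcdhga1.

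Protocadherin genes outside the clusters were open in most cases. Of 12 such genes, 10 were accessible, against 56.2% of protein-coding genes, and 11 in the longer lists, against 61.0%. Pcdh9 had heights of 7.86 and 5.23, and Pcdh10 had 7.64 and 5.23. Pcdh1, which lies on chromosome 18 beyond the 300 kb limit, had 1.67 and 1.42, near those of the C-type genes. Pcdh11x had a peak of 1.02 in replicate 1 alone, and Pcdh12, known from vessel endothelium, had none.

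Genes whose products are known to act on the clusters or with their proteins were open throughout. Promoters were accessible at 25 of 25, namely 8 of 8 for insulators and chromatin loops, 9 of 9 for silencing and DNA methylation and 8 of 8 for signalling and cleavage, with a median height of 3.30. Among the tallest were Stag1, a cohesin subunit, with 9.99 and 5.23, Smc3, another, with 9.09 and 4.91, and Adam10, a protease that sheds membrane proteins, with 7.87 and 4.08. Ctcf itself had 3.89 and 2.05. The list was chosen with earlier results of these data known, and 56.2% of all protein-coding genes were accessible.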

How the data were processed

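DNase-seq libraries of left cerebral cortex from 2 mice were examined, as 1 group of 2 biological replicates per the labels. Peak heights are signal values as the authors deposited them, on mm10 and from each replicate's own filtered alignment per the file notes; their scaling, the aligner and the callers of peaks and footprints were not given in the sources used here. FDR values, a measure used like a q-value, were deposited for stretches of bases below 0.05. The deposited footprint lists hold positions and 1 other value, a constant 0.01, which was not used. Of the 2 deposited peak lists per replicate the shorter was used, in which every peak of the locus (53 of 53 and 56 of 56) reached an FDR under 0.001 at a base or more; of the longer lists' peaks 61.1% and 70.4% did.

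Overlapping peaks of a list were joined, and peaks of both replicates sharing 1 bp or more made a shared region. Genes came from GENCODE M21 and sequence from GRCm38.p6, in Python 3.11.15 with numpy 2.4.6, pandas 2.3.3 and numba 0.67.0. Promoter windows, mean heights (geometric means of both replicates), CpG ratios, motif matches, and words of 25 bp occurring once were computed from these. Shares over genes stand in place of tests, since there was 1 group. The code that assigns peaks to promoters was run on made-up peaks clearly inside or outside the windows, and 100% of calls over 2000 genes were right. That was a check of the code alone, and the accuracy of the deposited peaks was not tested. Members were taken by symbol alone, whereas gene lists were chosen with earlier results of these data known. The genes named were the C-type genes, the 4 tallest of each set with peaks in both replicates, members with a peak in 1 replicate alone, accessible neighbours and the 4 tallest of the regulators, of which 1 is not reported here; other genes were named after their values were seen. Alternatives covered the peak list, the height limit, the overlap, the promoter window, the start sites, the motif, the FDR limit and leaving out a replicate.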

Additional observations from a re-analysis of the deposited data

How the results depend on the processing

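The count of accessible members, 5 of 58, stayed at 5 or 6 under 7 of 8 alternatives (only peaks at or above the median height, a stricter overlap, windows of 250 bp and 2000 bp, the gene's 5′ end alone and leaving out either replicate). With the longer peak lists it was 9, with 1 beta gene in place of 0 and 6 gamma genes in place of 3, while the alpha count was 2 under all 8. With the looser motif 24 members held a CTCF match and with 250 bp windows 0, in place of 1. The count of members with a footprint was 8 in both replicates and 9 to 15 when leaving out 1 replicate, with 15 in replicate 1. For FDR stretches, 10 in both, the counts were 13 to 17, with 17 in replicate 1, and at an FDR under 0.001 there were 6. The 41 shared regions away from member promoters numbered 34 to 51. The median height of the accessible members, 1.32, was 0.966 without replicate 1, 1.52 without replicate 2 and 1.03 with the longer lists. It stayed at 1.32 under the other alternatives. Their median log2 ratio was -0.69 under all 6 alternatives that keep both replicates, and no direction reversed. No paired analysis was possible because there was 1 group. Depth is unknown, so an absent peak says only that none was called.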
